A study of Homo sapiens with 6 samples.

Results

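Transcripts of 8 genes that encode kinases and cyclins of the RNA polymerase II tail outside the Mediator were followed in K562 cells exposed to cortistatin A (CA). The genes are CDK7, CCNH and MNAT1 of the CDK7 complex, CDK12 and CDK13 with their cyclin CCNK, and the L-type cyclin genes CCNL1 and CCNL2. They were taken by name, from every probe set whose platform annotation gave 1 of these symbols and no other, which found 27 of 54613 probe sets. A probe set is a group of short oligonucleotides on the array that reads 1 stretch of transcript. Of the 27, 19 were bright enough to be tested, among 27307 tested in all, and each of the 8 genes had at least 1.

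K562 is an established line from a chronic myelogenous leukaemia. Wells were exposed for 3 h to 25 nM CA, which inhibits CDK8 and CDK19, the kinases of the Mediator complex, or to DMSO, the vehicle, with 3 wells and 3 arrays of each. The wells held the same line in the same medium, at 500000 to 800000 cells per mL. Values are log2 signals made by RMA, a method that sets all arrays to a common overall level, and positive differences are higher in CA.

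The largest subunit of RNA polymerase II ends in a long tail of repeated heptapeptides, the C-terminal domain (CTD), whose phosphorylation marks the stages of transcription. CDK7, within the general factor TFIIH, phosphorylates the CTD as the polymerase leaves the promoter, while CDK12 and CDK13 act during elongation and the L-type cyclins link CDK11 kinases to splicing. CDK8 and CDK19, the targets of CA, sit in a separate module of the Mediator and can also phosphorylate the CTD. The comparison addressed whether transcripts of the other CTD kinases shift when these are inhibited.

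None of the 19 tested probe sets was called, where called means a Benjamini-Hochberg adjusted p under 0.05 by limma over all 27307, a threshold that 0.0952% of all tested probe sets passed, 0.0513% as higher in CA and 0.0439% as lower. Adjusted p ran between 0.404 and 0.997. At an unadjusted p under 0.05 there were 2 of 19, or 10.5%, against 9.31% of all tested probe sets. Of these 2, a CCNL2 probe set was higher in CA, against a background of 4.55%, and a CDK13 probe set was lower, against 4.76%. The fitted log2 differences of the 19 lay between -0.19 and 0.20, and their 95% confidence intervals between -0.34 and 0.35. The widest bounds thus correspond to a 1.27-fold decrease and a 1.28-fold increase.

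Among the 19, 14 fitted differences were negative and 5 positive, or 73.7% negative against 53.5% of all tested probe sets. The median difference was -0.05, against -0.01 over all tested probe sets, and the median size without sign was 0.07 against 0.06. Probe sets of 1 gene share their transcript, so the 19 are not independent. The CA and DMSO arrays did not overlap for 4 of 19, or 21.1%, against 15.6% of all tested probe sets. CA was lower in 3 of the 4, against a background of 8.52% of all tested probe sets, and higher in 1, against 7.09%.

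These directions are relative to the common level that RMA sets. Scaled instead to the 3' probe sets of the polyadenylated control RNAs, every difference shifts by 0.20 and the median of all tested probe sets becomes 0.19. All 19 fitted differences then were above 0, with a median of 0.14, which is below that of all tested probe sets. On that scale 1 of the 19, the CCNL2 probe set 221427_s_at, was called, at 0.39 (limma, adjusted p = 0.0298), as were 3691, or 13.5%, of all tested probe sets.

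**Figure D1:**
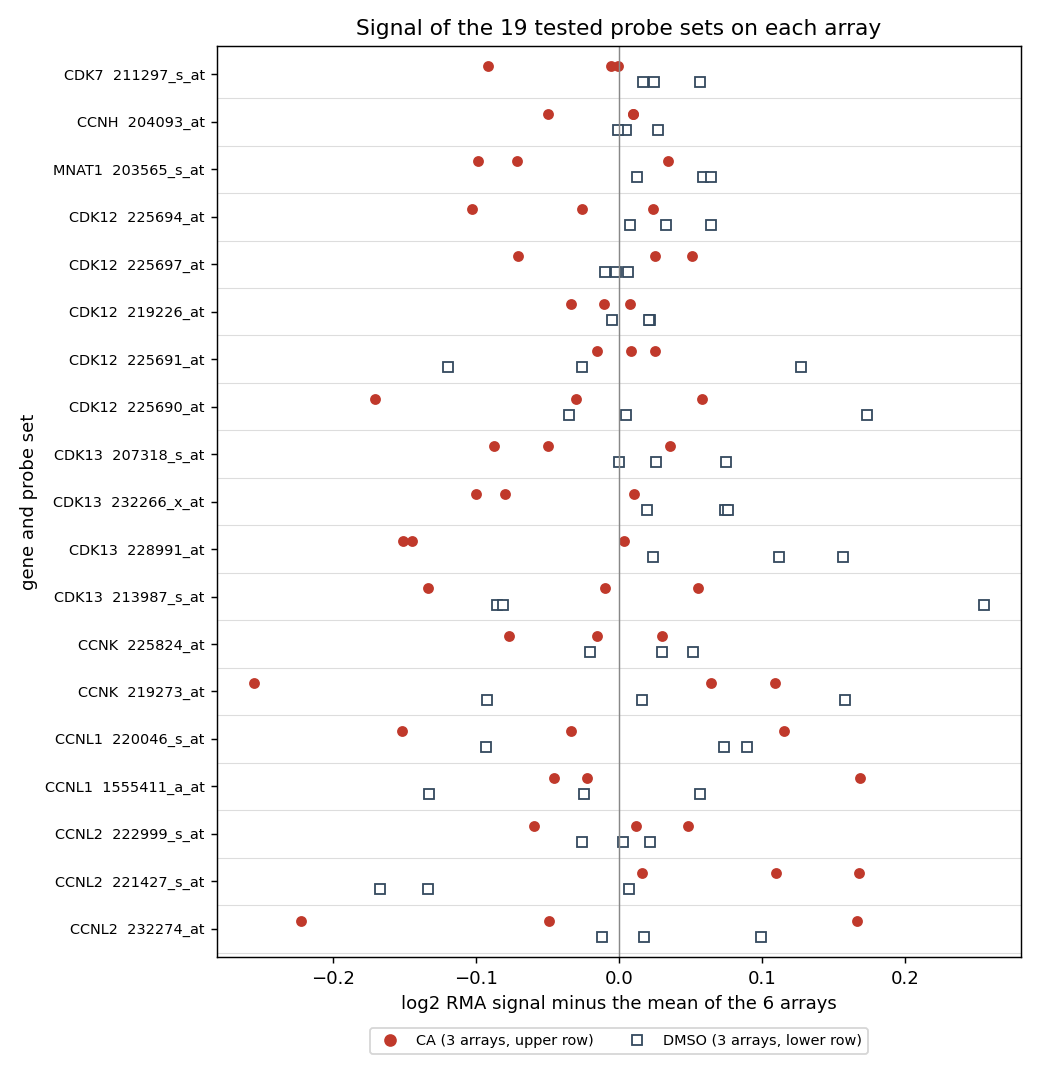
Each row is 1 tested probe set of the 8 genes, and each point is 1 array, as log2 RMA signal minus the mean of the 6 arrays (horizontal axis), with the 3 CA arrays above the 3 DMSO arrays. The CA points lie wholly to the left of the DMSO points for CDK7 211297_s_at, CDK13 232266_x_at and CDK13 228991_at, and wholly to the right for CCNL2 221427_s_at.

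Several features of the arrays ran alongside these values. CA array 1 scored -19.0 on principal component 2, the other arrays 0.338 to 7.20, and it gave the highest of the 3 CA values in 12 of the 19 tested probe sets, or 63.2%, against 44% of all tested probe sets. Without it the median difference of the 19 was -0.07, none was called by limma and 3 were at an unadjusted p under 0.05, against 11.3% of all tested probe sets. The difference between the 3' and 5' probe sets of beta-actin, a sign of RNA integrity and labelling, was 1.14, 1.18 and 1.31 on the CA arrays, against 1.45, 1.49 and 1.40 on the DMSO arrays, so that the groups did not overlap. The same difference for GAPDH was 0.629, 0.583 and 0.599 on the CA arrays, against 0.619, 0.642 and 0.645 on the DMSO arrays, and there the groups overlapped. The part of either in the results below was not tested. Of 8 erythroid markers with a probe set of their own, all 8 passed the signal filter, among them HBE1 at 13.3 and GATA1 at 8.40. Of 14 markers of other cell types with a probe set of their own, 6 passed it, with CD3D at 9.07 and COL1A1 at 6.95 the brightest, while CD14 was at 2.58 and CEACAM8 at 1.66. In bulk RNA, fewer cells of a type and less RNA per cell cannot be told apart.

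The start regions of CDK13 and CCNL2, the genes with a probe set at an unadjusted p under 0.05, are shown with those of CDK12 and CCNL1, the closest relative of each, as context for these transcripts. They are the 250 bases before the RefSeq start on the coding strand in GRCh38.p14, at chr7:39950006-39950255 for CDK13 (plus strand), chr17:39461236-39461485 for CDK12 (plus), chr1:1399336-1399585 for CCNL2 (minus) and chr3:157160148-157160397 for CCNL1 (minus). Capitals mark matches to 5 motifs searched on both strands.
CDK13: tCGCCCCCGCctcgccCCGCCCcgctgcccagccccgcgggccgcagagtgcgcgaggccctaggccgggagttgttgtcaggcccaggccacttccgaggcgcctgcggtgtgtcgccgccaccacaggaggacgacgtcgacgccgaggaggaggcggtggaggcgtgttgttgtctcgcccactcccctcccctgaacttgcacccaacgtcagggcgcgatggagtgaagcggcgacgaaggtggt
CDK12: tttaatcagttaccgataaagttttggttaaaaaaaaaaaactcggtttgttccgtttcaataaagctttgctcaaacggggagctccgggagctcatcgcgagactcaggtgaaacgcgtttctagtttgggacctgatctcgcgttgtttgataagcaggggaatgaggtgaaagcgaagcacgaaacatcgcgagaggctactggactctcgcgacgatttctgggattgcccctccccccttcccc
CCNL2: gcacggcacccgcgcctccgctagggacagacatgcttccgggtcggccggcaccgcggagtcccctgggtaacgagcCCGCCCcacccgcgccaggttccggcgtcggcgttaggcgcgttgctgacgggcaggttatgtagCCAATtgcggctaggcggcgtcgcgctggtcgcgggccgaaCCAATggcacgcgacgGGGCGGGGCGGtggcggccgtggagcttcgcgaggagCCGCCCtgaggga
CCNL1: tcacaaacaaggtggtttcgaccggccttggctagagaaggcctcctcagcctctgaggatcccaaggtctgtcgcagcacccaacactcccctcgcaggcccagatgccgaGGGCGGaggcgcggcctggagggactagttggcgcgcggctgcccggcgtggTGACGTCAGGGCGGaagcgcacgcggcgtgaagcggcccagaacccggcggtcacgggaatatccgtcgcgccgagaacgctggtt

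The motifs were GCGNGGGCG of EGR1, the E-box CACGTG of MYC, the cAMP response element TGACGTCA, the GC box GGGCGG and the CCAAT box. They occur in 8.41%, 6.34%, 1.65%, 42.6% and 32.0% of 35116 such regions. The CCNL1 region holds the cAMP response element, starting 86 bases before the start and next to a GC box that starts at 78, with another GC box at 138. The CCNL2 region holds 4 GC boxes, of which those at 50 and 45 overlap by a base, and CCAAT boxes at 107 and 66. The CDK13 region holds the EGR1 motif at 249 and a GC box at 234. A second RefSeq start of CDK13 lies further downstream, and the 250 bases before it held no match, as did the CDK12 region. All 8 genes matched the RefSeq table, with 10 starts. The E-box was found only at CDK7 among them, 105 and 14 bases before its 2 listed starts. A match is a description of these letters and was not tied to any value.

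The CDK7 complex, which also activates cell cycle kinases by phosphorylating their activation loops, was read by 1 probe set for each of its 3 subunits. CDK7, the kinase, had log2 signals of 8.67, 8.58 and 8.67 on the CA arrays, against 8.73, 8.69 and 8.70 on the DMSO arrays. The CA values all lay below the DMSO values, by a fitted -0.07 (95% confidence interval -0.17 to 0.04, adjusted p = 0.725 by limma). On the RMA scale the interval reaches from a 1.13-fold decrease to a 1.03-fold increase.

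CCNH, the regulatory cyclin H, had 10.07, 10.01 and 10.07 in CA, against 10.06, 10.06 and 10.09 in DMSO. The groups overlapped, and the interval, -0.12 to 0.08, was among the narrowest of the 19. MNAT1, the assembly factor MAT1 that stabilises the kinase and its cyclin, had 7.06, 6.93 and 6.96 in CA, against 7.09, 7.09 and 7.04 in DMSO. CA array 1 lay within the DMSO values and the other 2 CA arrays lay below them. The fitted difference of MNAT1 was -0.09 (-0.21 to 0.03, adjusted p = 0.655 by limma). Without CA array 1 it was -0.13 (-0.24 to -0.02), with an unadjusted p of 0.0322 and an adjusted p of 0.395 by limma. The differences of all 3 subunits were negative on the RMA scale, none was called, and all are above 0 after 3' control scaling.

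MNAT1 had the smallest unadjusted p of the 8 genes when each was read by its brightest probe set (0.121), so its pattern over the 6 arrays was set beside those of the other 12809 measured genes. The closest were CDK8, with a Pearson r of 0.998, KBTBD4 with 0.995 and C8orf76 with 0.993. CDK8, a kinase that CA inhibits, had 8.48, 8.37 and 8.39 in CA, against 8.49, 8.50 and 8.45 in DMSO. Like MNAT1, it was lowest on CA arrays 2 and 3. Of the other members, CDK13 and CCNK each had r of 0.900, CDK7 0.820, CCNL1 0.717, CDK12 0.610, CCNH 0.568 and CCNL2 0.332 with MNAT1. The 99th percentile of all genes was 0.929. These values describe 6 points from arrays that share a normalisation and CA array 1, and no p is given.

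CDK12 and CDK13 are large kinases with a cyclin K partner. CDK12 is known for sustaining transcription of long genes and of DNA repair genes. Its 8 probe sets comprised 5 tested and 3 dim ones. The brightest, 225694_at, gave 8.40, 8.32 and 8.45 in CA, against 8.49, 8.43 and 8.46 in DMSO, with CA array 3 between the DMSO arrays and the other CA arrays below them. Its difference was -0.07 (-0.19 to 0.05, adjusted p = 0.730 by limma). Fitted differences of the 5 tested CDK12 probe sets ran between -0.10 and 0.01, with 3 negative and 2 positive. All 5 had overlapping groups.

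CDK13 is the closest relative of CDK12. All 4 of its tested probe sets had negative differences on the RMA scale, between -0.19 and -0.06, where 53.5% of all tested probe sets were negative. In 2 of them the CA arrays lay wholly below the DMSO arrays, against 8.52% of all tested probe sets. After 3' control scaling all 4 differences were above 0. Probe set 228991_at gave 6.73, 6.58 and 6.58 in CA, against 6.89, 6.84 and 6.75 in DMSO. Every CA value was lower, CA array 1 lying just under DMSO array 3. The fitted difference was -0.19 (-0.34 to -0.05), which is 0.874-fold, at an unadjusted p of 0.0182 and an adjusted p of 0.404 by limma. By unadjusted p it ranked 1231 among all tested probe sets. Without CA array 1 it was -0.25 (-0.39 to -0.10, adjusted p = 0.312 by limma), and leaving out any 1 array gave differences between -0.25 and -0.17 and unadjusted p between 0.00582 and 0.0631.

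The second CDK13 probe set without overlap, 232266_x_at, gave 7.65, 7.56 and 7.54 in CA, against 7.66, 7.71 and 7.72 in DMSO. Its difference was -0.11 (-0.23 to 0.00, adjusted p = 0.548 by limma), and -0.15 without CA array 1 (adjusted p = 0.367 by limma). The suffix x marks probes that may match other transcripts. The brightest, 207318_s_at, gave 7.88, 7.79 and 7.75 in CA, against 7.92, 7.87 and 7.84 in DMSO, and these overlapped through CA array 1. Its difference was -0.07 (-0.19 to 0.05, adjusted p = 0.745 by limma). The difference at 228991_at minus that at 207318_s_at was -0.13, which gave an exact 2-sided permutation p of 0.1, the smallest that 3 against 3 arrays allow. This pair and 1 pair of CCNL2 were the 2 compared, and both were chosen after their values were seen. Each was picked by its CA against DMSO difference, and p cannot fall under 0.1. The test thus cannot decide whether the probe sets of a gene differ.

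CCNK, which encodes the cyclin K that CDK12 and CDK13 need for activity, was read by 2 tested probe sets. The bright one, 225824_at, gave 8.72, 8.62 and 8.68 in CA, against 8.72, 8.75 and 8.67 in DMSO, and the groups overlapped. The difference was -0.04 (-0.16 to 0.07, adjusted p = 0.847 by limma). The other, 219273_at, was just above the filter at a mean of 3.92, with a difference of -0.05 (-0.32 to 0.21) that became 0.06 without CA array 1.

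**Figure D2:**
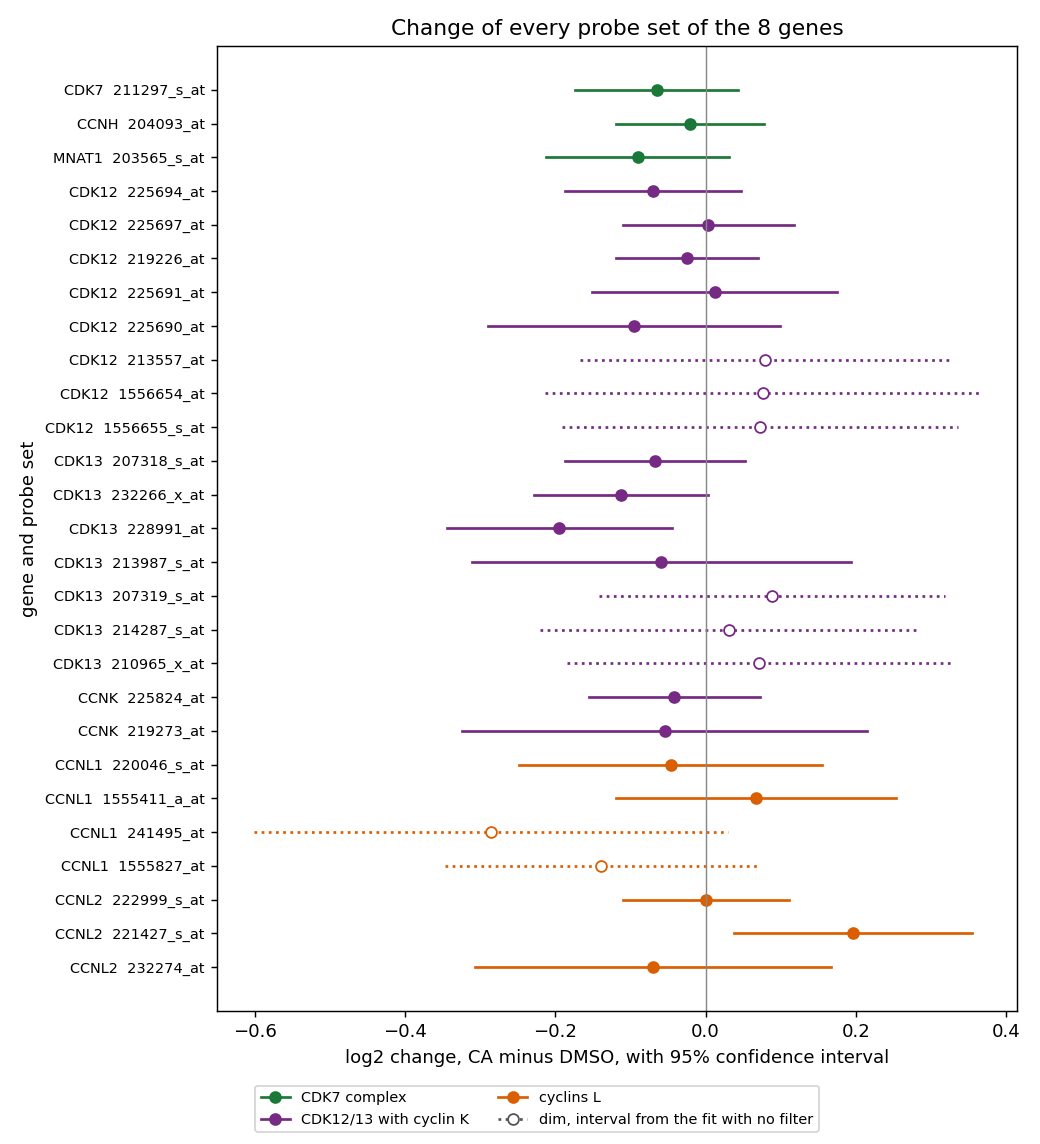
Fitted log2 difference, CA minus DMSO, with its 95% confidence interval (horizontal axis) for each of the 27 probe sets, coloured by complex. Filled points are the 19 tested probe sets and open points with dotted intervals the 8 dim ones, read from the fit with no filter; the intervals of CDK13 228991_at and CCNL2 221427_s_at are the ones that leave out 0.

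L-type cyclins carry a domain rich in arginine and serine and localise to nuclear speckles. CCNL1 had 2 tested probe sets of opposite sign. Probe set 220046_s_at gave 7.38, 7.23 and 7.11 in CA, against 7.34, 7.35 and 7.17 in DMSO, a difference of -0.05 (-0.25 to 0.16, adjusted p = 0.909 by limma). Probe set 1555411_a_at gave 6.79, 6.60 and 6.58 in CA, against 6.60, 6.68 and 6.49 in DMSO, a difference of 0.07 (-0.12 to 0.25, adjusted p = 0.847 by limma). For both, CA array 1 was the highest of all 6 arrays and the groups overlapped. Without CA array 1 the differences were -0.12 and 0.00.

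CCNL2 had 3 tested probe sets that went apart. The brightest, 222999_s_at, gave 7.81, 7.77 and 7.70 in CA, against 7.78, 7.74 and 7.76 in DMSO, with a difference of 0.00 (-0.11 to 0.11, adjusted p = 0.997 by limma). Probe set 221427_s_at gave 6.05, 5.99 and 5.89 in CA, against 5.71, 5.88 and 5.74 in DMSO. All CA values were higher, CA array 3 lying just over DMSO array 2. The difference was 0.20 (0.04 to 0.35), which is 1.15-fold, at an unadjusted p of 0.0222 and an adjusted p of 0.427 by limma. Without CA array 1 it was 0.16 (-0.02 to 0.34, adjusted p = 0.480 by limma).

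The third CCNL2 probe set, 232274_at, gave 5.18, 4.96 and 4.79 in CA, against 5.03, 5.11 and 5.0 in DMSO, which is a wider spread in CA than in DMSO and a difference of -0.07 (-0.31 to 0.17), or -0.17 without CA array 1. The difference at 221427_s_at minus that at 222999_s_at was 0.20, with an exact 2-sided permutation p of 0.1, again the smallest possible. This pair was picked in the same way as that of CDK13, so the test cannot decide whether they differ. The positions of the probes along the transcripts were not used here, so which isoforms each probe set reads is not given.

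The 8 dim probe sets belonged to CDK12 (3), CDK13 (3) and CCNL1 (2), with mean signals between 2.05 and 3.43, below the filter at 3.49. All 8 had overlapping groups. Their differences lay between -0.29 and 0.09, and in the fit with no filter 0 had an unadjusted p under 0.05 by limma, with adjusted p of 0.758 or more. The largest was CCNL1 241495_at, at 2.26, 1.92 and 2.06 in CA, against 2.21, 2.26 and 2.62 in DMSO. Signals this low are near background, where RMA compresses differences.

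**Figure D3:**
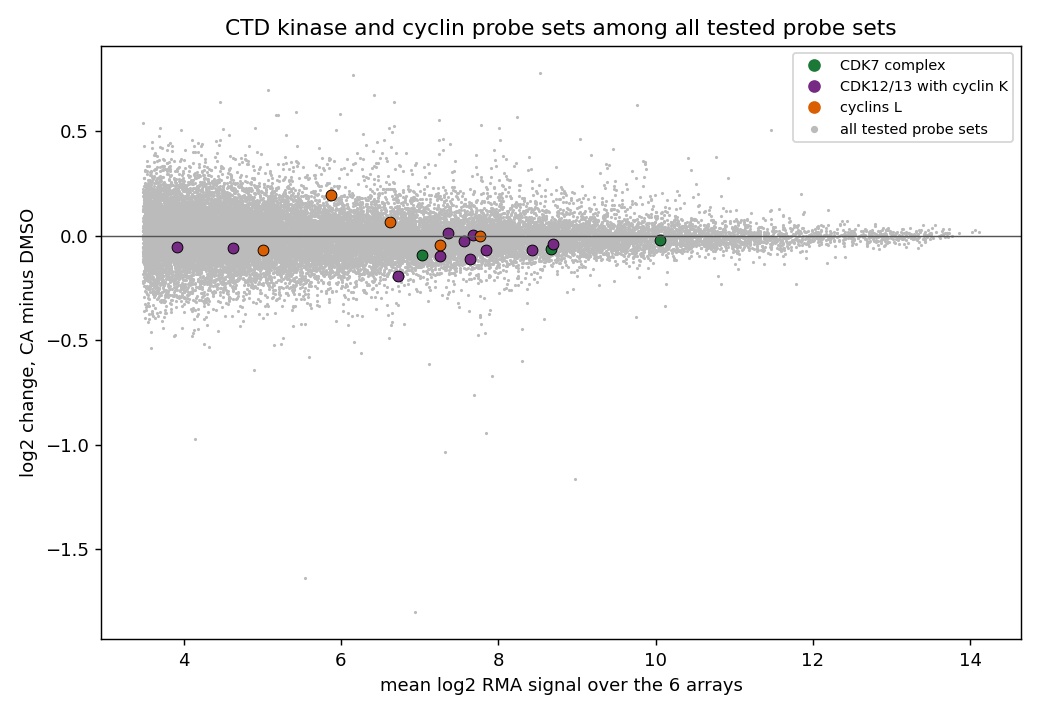
Mean log2 RMA signal over the 6 arrays (horizontal axis) and log2 difference, CA minus DMSO (vertical axis), for all 27307 tested probe sets in grey and the 19 of the 8 genes in colour. The coloured points lie between -0.19 and 0.20, inside the grey cloud.

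With each gene read by its brightest probe set, the 8 differences ran between -0.09 for MNAT1 and 0.00 for CCNL2, with 7 negative, 0 at an unadjusted p under 0.05 and a median of -0.06. Over all 12810 measured genes the median was -0.01, 56.5% were negative, 0.0859% were called and 8.61% were at an unadjusted p under 0.05. The 5th and 95th percentiles of all genes were -0.16 and 0.16, a range that held all 8. Across these 8 probe sets the confidence intervals on the RMA scale, each taken alone, reach from a 1.19-fold decrease to a 1.11-fold increase. After 3' control scaling all 8 differences were above 0.

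Genes that work with these kinases were counted in 9 lists, of which 69 of 77 genes were measured. None of the 69 was called by limma, and 4, or 5.80%, were at an unadjusted p under 0.05, all lower in CA, against 8.61% of all measured genes. In the list of Mediator kinases and P-TEFb, the elongation kinase complex of CDK9 with a cyclin T, 0 of 6 was called. CDK9 had 7.20, 6.87 and 6.94 in CA, against 6.82, 6.90 and 6.75 in DMSO, a difference of 0.18 (-0.04 to 0.40, adjusted p = 0.623 by limma) in which CA array 1 was the highest. CCNT1, its cyclin, had 9.37, 9.24 and 9.29 in CA, against 9.22, 9.21 and 9.17 in DMSO, a difference of 0.10 (adjusted p = 0.602 by limma) without overlap. After 3' control scaling, which raised the median of all measured genes to 0.18 and called 11.5% of them, 6 of the 69 list genes, or 8.70%, were called. CDK9 (0.37, adjusted p = 0.0396 by limma) and CCNT1 (0.30, adjusted p = 0.0405) were among them, as were GTF2H1 of the TFIIH core (0.26, adjusted p = 0.0440) and CDK4 (0.24, adjusted p = 0.0489). On the RMA scale CCNT2 had 0.07, CCNC, the cyclin of CDK8, had 0.00, CDK8 had -0.07 by its brightest probe set and CDK19 had -0.09. Other tested CDK8 probe sets had -0.08 and 0.19.

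SR protein kinases, which phosphorylate splicing factors of the speckles where L-type cyclins reside, had 2 of 6 genes at an unadjusted p under 0.05, where the share of all measured genes was 8.61%. CLK1 had 5.91, 5.79 and 5.90 in CA, against 6.04, 6.16 and 6.16 in DMSO. All its CA values were lower, by a fitted -0.25 (-0.39 to -0.11, adjusted p = 0.290 by limma). CLK4 had 5.94, 5.87 and 5.85 in CA, against 6.20, 6.01 and 6.01 in DMSO, also without overlap, at -0.19 (adjusted p = 0.444 by limma). CA arrays lay wholly below DMSO arrays in 9.95% of all measured genes and wholly above in 6.14%. SRPK1, the brightest of the 6, had 0.02. The SR and speckle proteins themselves had 0 of 13 called and 0 at an unadjusted p under 0.05, with a median of -0.02. Their smallest p was at SRSF6 (-0.07) and their brightest signal at SRSF1 (-0.02), and 12 of the 13 fitted values were negative, where 56.5% of all measured genes were.

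Of 11 measured DNA repair genes known to depend on CDK12, 0 were called and 2 were at an unadjusted p under 0.05, against 0.0859% and 8.61% of all measured genes. FANCF, of the Fanconi anaemia core complex, had 6.71, 6.76 and 6.73 in CA, against 6.90, 6.93 and 6.83 in DMSO, a difference of -0.15 (adjusted p = 0.388 by limma). BRIP1, a helicase partner of BRCA1, had 6.46, 6.45 and 6.38 in CA, against 6.72, 6.64 and 6.47 in DMSO, a difference of -0.18 (adjusted p = 0.499 by limma). Neither overlapped between groups, nor did FANCI, at -0.09 (adjusted p = 0.614 by limma). These 3 of 11 were wholly lower in CA, against 9.95% of all measured genes. The brightest, NBN, had 0.01, and the list median was -0.06 with 9 of 11 fitted values negative, against 56.5% of all measured genes. ATM had -0.17 by its brightest probe set (adjusted p = 0.742 by limma), with overlapping groups. Another tested ATM probe set had the opposite sign, at 0.19.

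The remaining lists had 0 genes called by limma and 0 at an unadjusted p under 0.05. In the core of TFIIH, the factor that also holds the CDK7 complex, 6 genes had a median of -0.01, with GTF2H1 at 0.06 and GTF2H5 at -0.06. Among 4 kinases that the CDK7 complex activates, the median was 0.01, with CDK4 at 0.05 and CDK1 at -0.01. For 12 RNA polymerase II subunits the median was -0.01, with POLR2I at -0.08 and POLR2B at -0.03. For 9 CTD phosphatases and CTD binding regulators it was -0.05, with RPRD1A, a CTD binding protein, at -0.10 and SSU72, a CTD phosphatase, at -0.07. Another tested RPRD1A probe set, dimmer than the one used, had the opposite sign, at 0.15. CCNQ, the cyclin of CDK10, had -0.09 and CDK10 had -0.04. CDK11A and CDK11B, the kinase genes paired with L-type cyclins, had no tested probe set of their own.

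**Figure D4:**
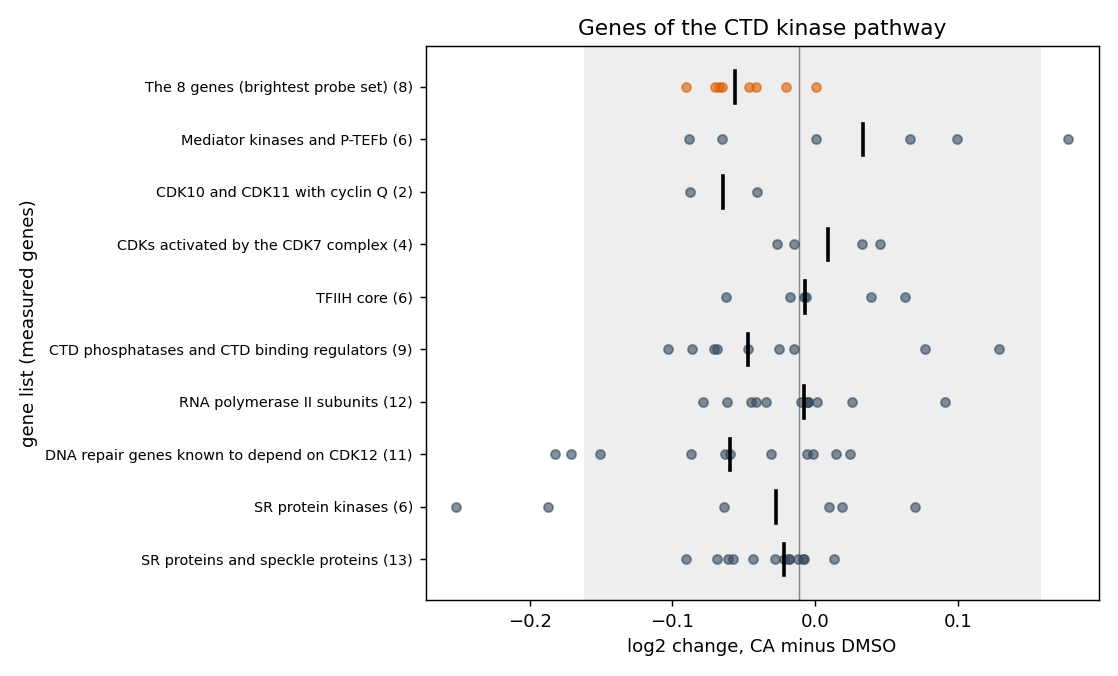
Log2 difference, CA minus DMSO (horizontal axis), of each measured gene in the 8 genes and in 9 related lists, with a black bar at each median and the number measured in brackets. The grey band spans the 5th to 95th percentile of all measured genes, -0.16 to 0.16, and the thin line is their median. CLK1, CLK4, BRIP1 and ATM lie to the left of the band and CDK9 to its right. ATM is drawn by its brightest probe set, at -0.17, and another tested ATM probe set, not drawn, had 0.19.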

How the data were processed

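For each of 54675 probe sets on 6 Affymetrix Human U133 Plus 2.0 arrays the authors deposited a log2 value, made with RMA in the affy package per the submitters' processing notes, with no version given. RMA subtracts background, equalises the arrays' distributions and summarises probes, so a shift of most transcripts together is hidden and small differences of dim probe sets are compressed. Per the labels' protocols, RNA was extracted with an RNeasy kit or TRIzol, without saying which for which sample, and 100 ng was labelled from the 3' end.

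Left out were 62 control probe sets. A probe set entered the test if its mean signal reached 3.49, the median over the rest. CA was compared with DMSO by lmFit and eBayes (limma 3.58.1, R 4.3.3), 2-sided, with p adjusted by Benjamini-Hochberg over all 27307. Errors are 95% confidence intervals of the model. With 3 arrays a group the median standard error was 0.07, and the number of arrays limits the precision. The labels do not say whether the 3 wells came from separate cultures, so p-values measure the spread between wells, which may be technical. Levels were not set against each other between probe sets. The fit was tested on simulated data, with shifts larger than any difference of the member probe sets. That test does not show how well differences of their size are found.

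Genes were named from the platform annotation, in which 41091 probe sets had 1 symbol, 1801 several and 11721 none. The 8 symbols match a current RefSeq table by gene ID. A gene was read by its brightest tested probe set. Named were all probe sets of the 8 genes, all of the Mediator kinase and P-TEFb list, and from each other list the gene with the smallest p and the brightest. CLK4, BRIP1, ATM, CDK10, CDK8 as a neighbour of MNAT1 and the 2 probe set pairs were named by other rules or after their values were seen. So were FANCI and the further probe sets of CDK8, RPRD1A and ATM. Members and lists were chosen with earlier results of these data known. Alternatives were other filters, normalisations, variance models, a replicate block, fewer probe sets and each array left out.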

Additional observations from a re-analysis of the deposited data

How the results depend on the processing

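No probe set of the 8 genes was called by limma in 14 of the 15 alternative fits, which differed in filter, normalisation, variance model, pairing, probe sets or arrays, at adjusted p of 0.168 or more, with all 19 tested except at the 75th percentile filter (16) and without _s_at and _x_at (11). The exception was scaling to 3' controls, with 1 called (CCNL2 221427_s_at, 0.39, adjusted p = 0.0298). That scaling called 3691 probe sets of all tested, and turned 14 of the 19 differences positive by adding the same 0.20 to each. Over all probe sets the count of 26 in the fit as reported was less stable. It was 5 with no filter, 162 with a filter at the 75th percentile, 285 with a prior variance that follows the signal, 1 without probe sets whose ID ends in _s_at or _x_at, and 2 to 5 without 1 array. The cause was not tested. With quantile normalisation again, centring and array weights it was 26, 26 and 30.

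With the replicate number as a block, 0 probe sets were called in all and 0 of the 19, at adjusted p of 0.474 or more. The numbers are not known to pair wells: the deviations of same-numbered arrays correlated at -0.07, 0.01 and 0.06, and CA array 1 correlated best with DMSO array 2. Without 1 array, signs of at most 3 of the 19 differences turned, none larger than 0.07 in size as reported. MNAT1, CDK13 228991_at and CCNL2 221427_s_at kept their signs. With 3 arrays a group, precision was limited. In the fit as reported none of the 19 differences, the largest of them 0.20, was told from 0 after adjustment. Why none was called was not tested. Only 3' control scaling called 1, CCNL2 221427_s_at.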
